A study of Mus musculus with 16 samples.

Results

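The 8 samples described here are pancreatic islets of *db/db* mice that had been cultured for 1 day with DMSO, the solvent of the drug adjudin, and sequenced as bulk mRNA. They were taken by their labels, as every sample of the DMSO treatment, and make up 8 of the 16 samples of the series. The other 8 were cultured for 1 day with 10 µmol/l adjudin. The labels number the batches 1 to 8, and a batch consists of 1 DMSO and 1 adjudin sample. Islets in both treatments came from 12- to 13-week-old male *db/db* mice on the BKS background (BKS(D)-*Lepr*db/JOrlRj), in medium with 11 mmol/l glucose, and were handpicked and left to recover overnight before treatment. A sample corresponds to islets of 1 to 2 mice, and according to the methods of the study aberrant batches of islets were not used, so the spread among the 8 samples is that of accepted batches. The sources used here do not say whether the samples of a batch share mice, extraction or library preparation, so biological and technical differences between batches cannot be told apart. No contrast of the treatments is made below. The adjudin sample serves only as the other sample of its batch.

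An islet is a small endocrine organ in which beta cells secrete insulin and islet amyloid polypeptide, alpha cells glucagon, delta cells somatostatin and PP cells pancreatic polypeptide. The peptides are cut from prohormones and stored in dense-core granules. Islets are freed from the surrounding acinar and ductal tissue by enzymatic digestion and hold capillaries, macrophages and stromal cells of their own. *db/db* mice lack the signalling form of the leptin receptor, become obese and hyperglycaemic, and are studied for beta cells that lose insulin, *Mafa* and *Ucn3*.

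The DMSO samples held between 24190102 and 32675186 reads counted to genes, and 22567 to 25194 genes had at least 1 read. Of the 54532 genes in the table, 14020 reached 1 CPM (reads of the gene, scaled to the reads of the library) in all 8 samples and 22888 had no read in any of them. The 61 genes with a mean of 1000 CPM or more took 21.4% of the reads, and the 2031 genes between 100 and 1000 CPM took 43.1%. The Y-linked gene *Ddx3y* was between 54.0 and 118 CPM and *Xist*, the RNA of the inactive X chromosome, between 0 and 0.286 CPM, as fits the labelled sex. All 28 pairs of DMSO samples differed by more than sampling noise. *Lepr*, the mutated gene of the strain, was at 0.671 to 2.02 CPM.

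*Ins2*, an insulin gene, took the most reads of any gene in every DMSO sample, but its level differed 3.07-fold between the lowest and the highest batch. The hormone genes of the islet took 4.70% of the reads in batch 4, the lowest, a median of 9.40%, and 13.1% in batch 7, the highest. A CPM compares 1 gene between samples. To compare genes with each other, reads were divided by gene length and scaled to a common total over genes of at least 200 bases (TPM). On that scale the same genes made up a median of 21.8% of the transcripts (lowest 12.9%, highest 28.5%). In bulk samples, fewer cells of a type and less RNA per cell cannot be told apart.

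*Ins2* (ENSMUSG00000000215, chromosome 7), the ancestral mouse insulin gene, had its lowest value of 25007 CPM in batch 4, a median of 53031 CPM and its highest of 76651 CPM in batch 7. *Ins1* (ENSMUSG00000035804, chromosome 19), its retrotransposed copy, was at 5182 CPM in batch 4, with a median of 13374 CPM and a highest value of 26560 CPM in batch 7. *Iapp* (ENSMUSG00000041681, chromosome 6), which encodes islet amyloid polypeptide, ranged between 5667 CPM in batch 4 and 16648 CPM in batch 3, with a median of 11620 CPM. Batch 4 was thus lowest for all 3 beta cell hormones, while the highest batch was not shared. Without batch 4, the lowest share of reads for these 3 genes together was that of batch 5 (6.63%), in place of 3.59%.

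The insulin genes did not move in a fixed ratio. In TPM, *Ins2* exceeded *Ins1* in 8 of 8 samples, by 2.17 times in batch 1 at the least and 4.11 times in batch 2 at the most, with a median of 3.00. The ratio recurred in the adjudin samples of the same batches, which the description did not use (r = 0.947, adjusted p = 0.00794; rho = 0.905, adjusted p = 0.0183; exact permutation tests over 8 batches, adjusted over 4 ratios chosen after seeing the data). Leaving out the 2 samples farthest from the median gave r = 0.968. The 2 genes are nearly alike in sequence and reads can be shared between them, and the sources used here do not say how reads with several positions were counted, so the ratio is less certain than the sum.

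The sequences before the starts of 3 beta cell genes are shown because they are the genes of this class, among those the results turn on, for which the reference table held one: *Ins1* and *Ucn3*, each of which varied with *Mafa* between batches, and *Iapp*. They are the 250 bases before each start in RefSeq (build GRCm38.p6), 5′ to 3′ on the strand of the gene. Capitals mark TAAT, the core that many homeodomain factors of the beta cell can bind, and CATCTG, an E-box of the kind bound by NEUROD1 dimers, each on either strand (ATTA and CAGATG on the other). The windows lie at chr19:52264047-52264296 (plus strand), chr6:142298175-142298424 (plus strand) and chr13:3945350-3945599 (minus strand).
*Ins1*: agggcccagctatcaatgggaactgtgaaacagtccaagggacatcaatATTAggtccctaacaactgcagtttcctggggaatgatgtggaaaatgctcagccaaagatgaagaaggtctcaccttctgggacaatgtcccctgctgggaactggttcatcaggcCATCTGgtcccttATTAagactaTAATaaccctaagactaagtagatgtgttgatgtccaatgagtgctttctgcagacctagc
*Iapp*: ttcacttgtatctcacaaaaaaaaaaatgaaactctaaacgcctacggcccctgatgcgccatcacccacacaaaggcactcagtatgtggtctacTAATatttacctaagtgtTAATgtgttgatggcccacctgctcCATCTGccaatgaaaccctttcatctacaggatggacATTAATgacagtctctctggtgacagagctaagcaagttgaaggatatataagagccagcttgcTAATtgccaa
*Ucn3*: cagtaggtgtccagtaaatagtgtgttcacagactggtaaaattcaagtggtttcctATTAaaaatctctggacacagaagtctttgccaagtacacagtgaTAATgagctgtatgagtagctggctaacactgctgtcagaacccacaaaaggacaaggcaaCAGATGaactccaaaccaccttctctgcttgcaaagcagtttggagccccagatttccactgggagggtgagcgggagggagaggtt
TAAT occurred 3 times in the *Ins1* window, 5 times in that of *Iapp*, where 2 of the matches overlap as ATTAAT, and 2 times in that of *Ucn3*. CATCTG occurred 1 time in each. Of 32851 such windows in the table, 54.9% held TAAT and 14.4% held CATCTG on either strand. A match is a description of the letters and not a binding site.

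The other islet hormones varied in their own patterns. *Gcg*, which encodes glucagon, was lowest in batch 3 (4188 CPM), with a median of 8358 CPM and its highest value in batch 6 (10397 CPM). *Sst*, which encodes somatostatin, was also lowest in batch 3 (687 CPM; median 1216, highest 1605 CPM in batch 7), as was *Pyy*, which encodes peptide YY (793 CPM; median 1571, highest 1748 CPM in batch 6). *Ppy*, which encodes pancreatic polypeptide, kept between 2395 and 2798 CPM in 7 samples and stood at 3914 CPM in batch 2. Batch 3 therefore combined the lowest *Gcg*, *Sst* and *Pyy* with the highest *Iapp*, and in TPM its *Ins2* was 16.5 times *Gcg*, against a range of 4.80 to 10.0 in the other batches. In TPM *Gcg* and *Ppy* lay close together: their ratio was 0.546 to 1.28, with a median of 0.993, and *Gcg* was lower in 4 of 8 samples. *Ghrl*, the ghrelin gene of epsilon cells, was nearly absent, at 0.0350 to 0.557 CPM.

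Members of the alpha and delta cell lists other than hormones were detected as well. *Sst* made up 61.1% of the delta cell list. For alpha cells, *Tm4sf4*, a membrane protein, was at 195 to 296 CPM and *Peg10*, an imprinted retrotransposon-derived gene, at 5.29 to 18.6 CPM. In the delta cell list, *Cd24a* was at 364 to 673 CPM. *Pdyn*, which encodes prodynorphin, was at 28.03 CPM in batch 4 and up to 166 CPM in batch 1. Which cells the *Cd24a* reads came from was not tested. *Pdyn* was thus low in batch 4 and high in batch 1, as *Ucn3* was, whereas *Sst* was lowest in batch 3 and highest in batch 7. The beta cell hormones were also lowest in batch 4, but none of them was highest in batch 1.

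Granule proteins took a median of 1.89% of the reads, between 1.42% in batch 4 and 2.33% in batch 7. *Chgb*, which encodes chromogranin B, led with 3135 to 4666 CPM (median 3980 CPM), before *Scg2*, which encodes secretogranin II (2095 to 3892 CPM), and *Chga*, which encodes chromogranin A (1860 to 3761 CPM). *Pcsk1*, the prohormone convertase that starts the processing of proinsulin, varied most in the list (72.3 CPM in batch 4, median 159 CPM, 184 CPM in batch 1). The spread of this list was smaller than that of the hormones: the highest sample was 1.65 times the lowest for granule proteins and 2.80 times for hormones.

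**Figure D1:**
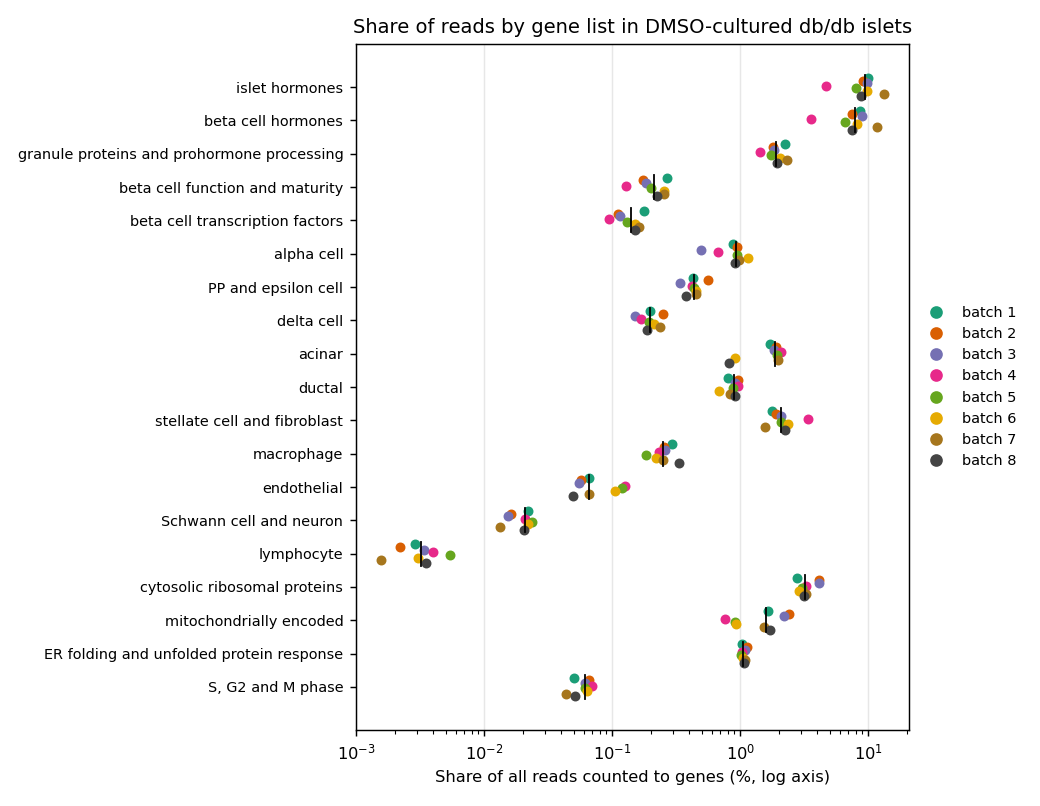
Share of all counted reads (x axis, percent, log scale) taken by 19 of the 32 gene lists (rows) in the 8 DMSO samples, one point per sample coloured by batch, with the median as a black bar. Hormones ranged between 4.70% and 13.1%, with batch 4 lowest, while the 26 genes of the endoplasmic reticulum stayed between 1.01% and 1.14%. The rows overlap, since hormone genes are counted in the hormone list and again in the lists of their cell types. *Gcg* made up 89.3% of the alpha cell list.

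Whether a gene differed between batches beyond the difference of 2 samples of a batch was tested with edgeR over all 16 samples, with treatment as a term. Of 16910 genes tested, 11461 differed (67.8%) at an adjusted p under 0.05. In the lists, all 3 beta cell hormones, 24 of 25 granule genes, 17 of 17 tested beta cell transcription factors and 18 of 18 genes of beta cell function were among them. The shares of the lists are read against that background of 67.8%, and no list was tested as such. The typical DMSO spread of a gene of at least 5 CPM, as SD of log2 CPM, was 0.209 (median over 12042 genes), against 0.486 for the beta cell hormones, 0.299 for granule genes, 0.301 for beta cell transcription factors and 0.382 for beta cell function. A spread above 0.209 was not particular to beta cell lists: it was 0.650 for acinar, 0.549 for endothelial, 0.318 for alpha cell and 0.315 for macrophage genes. The endoplasmic reticulum, hypoxia, interferon-stimulated and sterol lists lay below, at 0.160, 0.175, 0.201 and 0.170.

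The lists of beta cell transcription factors and of beta cell function both took their lowest share of the reads in batch 4. *Mafa* (ENSMUSG00000047591, chromosome 15), an activator of insulin transcription that marks mature beta cells, was at 24.8 CPM in batch 4, a median of 75.1 CPM and 131 CPM in batches 1 and 7. It was the most variable beta cell transcription factor (SD 0.82 on the log2 scale). *Insm1*, *Nkx6-1* and *Pax6*, the most abundant of that list, reached 128 to 248, 99.2 to 206 and 96.4 to 185 CPM. *Ucn3* (ENSMUSG00000044988, chromosome 13), which encodes a peptide of mature beta cells that drives somatostatin release, was at 18.9 CPM in batch 4, a median of 42.7 CPM and 53.7 CPM in batch 1. Among genes of beta cell function, *G6pc2*, a glucose-6-phosphatase of glucose sensing, was at 199 to 533 CPM, *Abcc8*, a subunit of the ATP-sensitive potassium channel, at 222 to 597 CPM, and *Ero1lb*, an oxidase that helps to form disulphide bonds in insulin, at 161 to 360 CPM. *Trpm5*, a cation channel, varied most in that list (2.33 to 10.8 CPM).

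*Mafa*, *Ins1* and *Ucn3* varied together. Over 210 pairs of 21 genes, 1 to 3 of them per class, the pairs *Ins1* with *Mafa* (r = 0.970, adjusted p = 0.0104; rho = 0.976, adjusted p = 0.0417) and *Mafa* with *Ucn3* (r = 0.932, adjusted p = 0.0417; rho = 0.976, adjusted p = 0.0417) passed the exact permutation test across the 8 DMSO samples, and 26 pairs had an unadjusted p under 0.05. *Ins1* with *Ucn3* did not pass (r = 0.881, adjusted p = 0.0677). Leaving out the 2 samples farthest from the median gave r = 0.968 and r = 0.843 for the 2 pairs that passed. In the adjudin samples of the same batches, the same pairs had r = 0.973 and r = 0.933. Each gene recurred closely between the samples of a batch (r = 0.983 for *Mafa*, 0.969 for *Ins1* and 0.948 for *Ucn3*). The pair values in the adjudin samples are therefore not an independent check. With batch 4 left out, r was 0.930 and 0.871, and neither passed (adjusted p = 0.0833 and 0.333). With 7 samples the smallest unadjusted p is 1.98e-04, and 4 of the 8 sets of 7 samples had no pair that passed. The batches that stood together on the components described further on hold 2 or 3 samples each, too few for a value within them. *Ins2* had r = 0.885 with *Ins1*, 0.812 with *Mafa* and 0.634 with *Ucn3*. *Iapp* had r = 0.665, 0.585 and 0.330 with the same genes, and none of these pairs passed. *Ins2* with *Iapp* had r = 0.897 (adjusted p = 0.150).

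**Figure D2:**
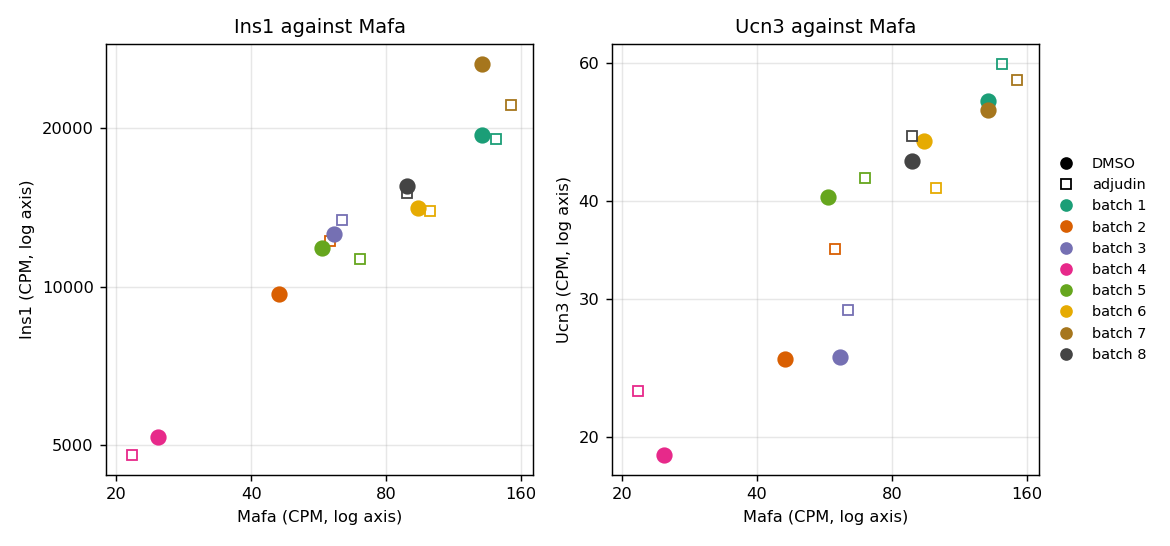
*Ins1* (left, y axis, CPM) and *Ucn3* (right, y axis, CPM) against *Mafa* (x axis, CPM) on log axes, with 1 filled circle per DMSO sample and 1 open square per adjudin sample, coloured by batch. In the DMSO samples batch 4 lies lowest on all 3 genes, at 24.8 CPM of *Mafa*, and batches 1 and 7 lie highest, at 131 CPM.

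Genes associated with diabetic stress were detected in all samples. *Aldh1a3*, a retinaldehyde dehydrogenase used as a marker of failing beta cells, was at 96.6 CPM in batch 2, a median of 120 CPM and 131 CPM in batch 8, and the list took 0.188% to 0.220% of the reads, 42.8% of them from *Vim*, an intermediate filament gene of mesenchymal cells. *Vim*, *Txnip* and *Cd81*, its most abundant members, were at 751 to 1089.7, 195 to 335 and 185 to 250 CPM. *Cck*, which encodes cholecystokinin, varied most, with 29.7 CPM in batch 5 and 96.7 CPM in batch 3. Of the 19 members tested, 16 differed between batches, against 67.8% of all genes tested. *Txnip*, a glucose-responsive gene, differed too (edgeR adjusted p = 0.0377), although its DMSO and adjudin values were only weakly related over the batches (r = 0.206).

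Genes normally kept low in beta cells (disallowed genes) were led by *Ldha*, lactate dehydrogenase A, at 275 to 387 CPM, *Tgm2*, a transglutaminase, at 219 to 367 CPM, and *Igfbp4* at 107 to 251 CPM. Each of the 3 was highest in batch 4. *Pdgfra*, a receptor of mesenchymal cells, varied most in the list (33.2 to 104 CPM) and was highest there too. Batch 4 also had the highest share of stellate cell and fibroblast genes, given further on; the part of those cells in the disallowed genes was not tested. The list took 0.203% of the reads in batch 4, against 0.132% to 0.161% in the other batches.

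Exocrine transcripts were present in every library. Acinar genes took between 1.70% and 2.08% of the reads in 6 samples, but 0.906% in batch 6 and 0.816% in batch 8 (95% Wilson interval 0.813% to 0.819%, counting error only). The highest share was that of batch 4. *Ctrb1*, which encodes chymotrypsinogen B, made up 42.7% of the list, with 3998 CPM in batch 6, a median of 6826 CPM and 9685 CPM in batch 4. In TPM it ranked 4, at 26.7 to 50.2 times *Cpa1*, which encodes carboxypeptidase A and was set against it after values were seen. The trypsinogen genes *Try5* (676 to 3567 CPM) and *Prss3* (732 to 2259 CPM) followed; trypsinogens are near-identical copies that can share reads. Ductal genes were flatter, at 0.687% to 0.967%: *Krt8*, a simple epithelial keratin, was at 1352 to 2269.6 CPM, *Spp1*, which encodes osteopontin, at 1602 to 2952 CPM, *Cldn4*, a tight junction protein, at 949.8 to 1965 CPM, and *Krt19*, a ductal keratin, at 156 to 281 CPM. Batch 6 was the lowest for *Krt8*, *Cldn4* and *Krt19*.

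The DMSO values of acinar genes recurred less closely in the other sample of the batch than those of most lists. The median correlation between the DMSO and adjudin samples over the 8 batches was 0.688 over the 39 acinar genes of at least 5 CPM and 0.628 over the 26 macrophage genes of that level, against 0.832 over all such genes, and it was 0.905 for granule genes. Low values were not limited to these lists: the median was 0.685 for alpha cell, 0.532 for interferon-stimulated and 0.451 for lymphocyte genes (3 genes). These are descriptions, with no test. Of the 39, 3 reached 0.9, against 31.1% of all genes of at least 5 CPM. *Ctrb1* itself recurred (r = 0.851, adjusted p = 0.00458, exact permutation test), and *Amy2a1*, a pancreatic amylase, did not (r = -0.146): it was at 68.0 CPM in the DMSO sample of batch 4 and 2.77 CPM in its adjudin sample. Pancreatic amylase genes are near-identical copies, so the split of reads between them is uncertain.

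Immune transcripts were few and mostly of macrophage genes. The macrophage list took 0.184% in batch 5, a median of 0.251% and 0.330% in batch 8. *Apoe*, a lipid carrier that is also expressed outside macrophages, led with 620 to 1267 CPM and *Lyz2*, a lysozyme, followed with 195 to 477 CPM. *C1qa*, a complement component made by tissue macrophages, was at 91.6 CPM in batch 5, a median of 134 CPM and 178 CPM in batch 8; *Ctss*, a lysosomal protease, was at 91.9 to 175 CPM. *Mrc1*, a mannose receptor, varied most in the list, at 5.84 to 18.2 CPM. Of the 30 macrophage genes 25 differed between batches, against 67.8% of all genes tested.

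Lymphocyte genes took 0.00157% to 0.00536% of the reads, and 8 of the 20 listed had a mean of 1 CPM or more. *Trbc2*, a T cell receptor chain, was at 4.84 to 13.2 CPM. *Ighm* and *Igkc*, immunoglobulin chains of B cells and plasma cells, were at 0.118 to 23.5 and 0.0395 to 13.3 CPM. The neutrophil and mast cell list rested on *Kit* (87.3% of its reads), which other cells also express. Erythroid genes were at or near 0: their share was at most 1.11e-04%. Of the adipocyte and mesothelial genes, *Msln* (mean above 5 CPM) and *Wt1* were the 2 with a mean of at least 1 CPM, and *Adipoq*, *Plin1* and *Lep*, named after values were seen, were at or near 0.

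Stellate cell and fibroblast genes took more of the reads than the immune lists. Their share was 1.56% in batch 7, a median of 2.07% and 3.38% in batch 4. In TPM their median was 1.01%, against 0.399% for macrophage genes. Endothelial genes took fewer reads than macrophage genes (medians 0.0660% and 0.251%). *Col1a1*, the alpha 1 chain of type I collagen, was at 3569 CPM in batch 2, a median of 4910 CPM and 8617 CPM in batch 4. *Col3a1* (2576 to 5267 CPM) and *Col1a2* (2041 to 4555 CPM) were likewise highest in batch 4. The batch with the least insulin was thus the batch with the most collagen mRNA; *Iapp* with *Col1a1* had r = -0.926 (exact permutation test, adjusted p = 0.100), which did not pass. *Ogn*, osteoglycin, varied most in the list, at 3.10 to 9.48 CPM. Both values are shares of the same total.

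Endothelial genes split the batches. They took 0.126%, 0.1201% and 0.105% of the reads in batches 4, 5 and 6, and 0.0493% to 0.0661% in the other 5. Batches 4, 5 and 6 were grouped because they had the highest values of this list, so the absence of overlap follows from that choice. *Pecam1*, an adhesion molecule of endothelial junctions, was at 98.6, 101 and 86.3 CPM in batches 4, 5 and 6 and at 34.3 to 54.0 CPM in the others. *Kdr*, the main VEGF receptor, was at 127, 119 and 107 CPM in those batches and at 31.8 to 50.5 CPM in the others. *Eng* (125 to 282 CPM), *Plvap* (50.4 to 157 CPM) and *Ptprb* (8.32 to 33.1 CPM), all genes of vascular endothelium, had the same 3 batches on top. All of these genes are members of the list that set the grouping. All 20 endothelial genes differed between batches, against 67.8% of all genes tested. *Pecam1* had r = 0.974 between DMSO and adjudin samples and is among the 17 of 21 genes counted as correlated further on. Its values form separate clusters, so this r says little about agreement within a cluster. Of the Schwann cell and neuron list, *Mbp*, which encodes myelin basic protein, was at 45.2 CPM in batch 7 and 125 CPM in batch 5.

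Ordered by length-scaled abundance, the first 20 genes of at least 200 bases were *Ins2*, *Ins1*, *Iapp*, *Ctrb1*, *Ppy*, *Gcg*, *Clu*, *mt-Co1*, *Pyy*, *Eef1a1*, *mt-Cytb*, *CT010467.1*, *Try5*, *mt-Nd1*, *Rplp1*, *Sst*, *Prss3*, *Chgb*, *Spp1* and *Scg2*. *Ins2* averaged 107242 ± 25388 TPM, *Ins1* 38078 ± 15603 TPM and *Iapp* 32222 ± 7532 TPM (SD, n = 8). *Clu*, which encodes the secreted chaperone clusterin, ranked 3 by CPM, with 8250 to 15587 CPM, and averaged 9482 ± 2222 TPM (SD, n = 8). *CT010467.1* is annotated as ribosomal RNA. By CPM *Col1a1* ranked 10 and *Ppy* 16, whereas in TPM *Ppy* ranked 5 and *Col1a1* was not among the 20.

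Neighbours in that order were compared within samples. Of the 19 neighbouring pairs, *Ins2* over *Ins1* (a mean difference of 1.57 on the log2 scale, higher in 8 of 8 samples, p = 0.00781) and *Gcg* over *Clu* (0.57, higher in 6 of 8, p = 0.0313) had an unadjusted p under 0.05 in an exact two-sided sign-flip test. None passed after adjustment (smallest adjusted p = 0.148), but 0.00781 is the smallest p that 8 samples allow, and a single pair at that p cannot pass over 19 pairs, so the adjusted values say little about the order. *Ins1* exceeded *Iapp* in 5 of 8 samples (mean difference 0.16 on the log2 scale) and *Ppy* exceeded *Gcg* in 4 of 8 (0.15). With no lower limit on length, *Gm23935*, a gene of 57 bases annotated as a miRNA, came before *Ins2*. All genes under 200 bases together held 0.287% of the reads and 11.5% of the length-scaled abundance. Of these genes, 31 had a mean of at least 1 CPM. The level of such short genes is uncertain.

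**Figure D3:**
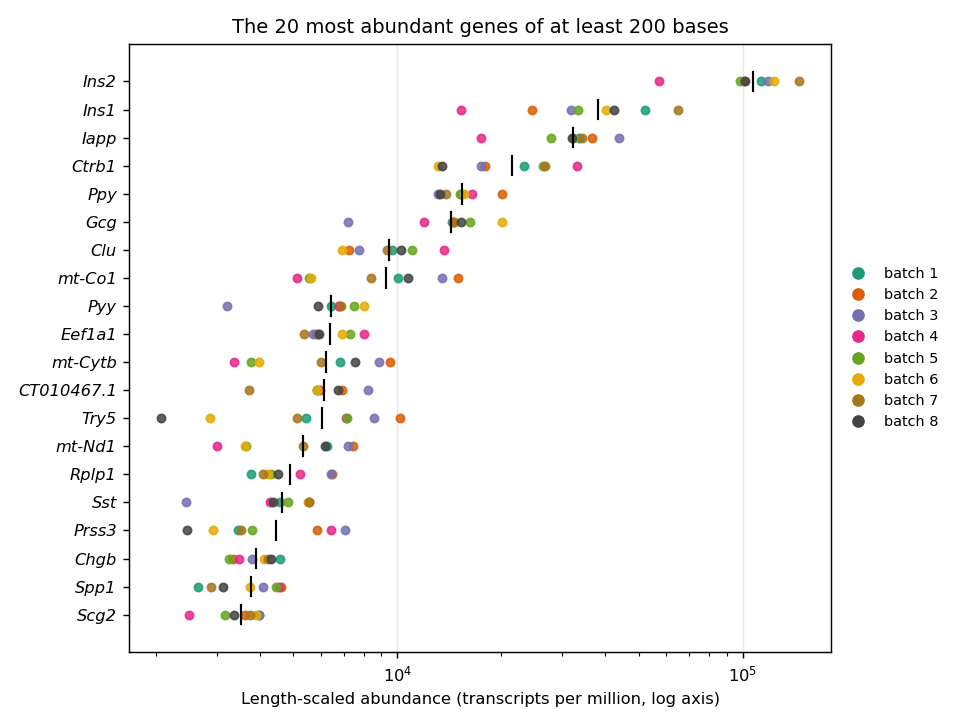
Length-scaled abundance (x axis, TPM, log scale) of the 20 most abundant genes of at least 200 bases (rows), with 1 point per DMSO sample coloured by batch and the mean as a black bar. *Ins2* lies between 57212 and 145217 TPM, above *Ins1* in every sample, while most later neighbours overlap.

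Among general cell functions, the summed share of the endoplasmic reticulum list varied little between batches and that of mitochondrial transcripts varied widely. *Hspa5*, the chaperone BiP, was at 1387 to 1731 CPM, and *P4hb*, a protein disulphide isomerase, at 1171 to 1336 CPM. The 26 genes of the list took 1.01% to 1.14% of the reads, with a coefficient of variation of 3.81%. Mitochondrially encoded genes took 0.765%, 0.916% and 0.921% in batches 4, 5 and 6 and 1.52% to 2.42% in the others, a coefficient of variation of 40.5%. *mt-Co1*, a subunit of cytochrome c oxidase, was at 2638, 3000 and 3015 CPM in batches 4, 5 and 6 and at 5208 to 8976 CPM in the others. Those 3 batches were the ones with the most endothelial mRNA. *mt-Co2*, *mt-Co3* and *mt-Atp6*, neighbours in the mitochondrial genome named after values were seen, were counted at 32.7 to 109, 16.4 to 43.8 and 11.5 to 38.5 CPM, far below *mt-Co1*; their nuclear copies can share reads, so these levels are uncertain.

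Cytosolic ribosomal protein genes took 4.14% and 4.12% in batches 2 and 3, the 2 highest values, and 2.77% to 3.29% in the others. *Rpl41* was at 1251 and 1288 CPM in those 2 batches and at 789 to 1069 CPM in the others, while *Rplp0* (1064 to 1334 CPM) did not have them on top. Batches 2 and 3 also had the most *Hsp90aa1*, a cytosolic chaperone (1162 and 1098 CPM, against 580 to 658 CPM in the other 6).

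Proliferation genes were low and led by *Pcna*, the clamp of DNA polymerase (67.3 to 114 CPM), *Mcm6*, a replication helicase subunit (50.9 to 83.0 CPM), and *Top2a*, a topoisomerase (30.9 to 61.4 CPM). *Mki67*, a marker of cycling cells, was at 21.4 CPM in batch 7, a median of 39.0 CPM and 58.0 CPM in batch 4, and recurred in the adjudin samples (r = 0.959, adjusted p = 0.00195, exact permutation test, n = 8). All 25 genes of the list differed between batches, against 67.8% of all genes tested. The most variable was *Cenpf*, a kinetochore protein (3.16 to 14.1 CPM). Immediate early genes, which respond within minutes to a stimulus, were highest in batch 8: *Fos* was at 73.4 CPM there and 58.6 CPM in batch 1, against 21.3 to 36.9 CPM in the other 6. *Jun*, *Junb* and *Btg2* were also highest in batch 8, at 322, 449 and 173 CPM.

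Interferon-stimulated genes took 0.0316% to 0.0388% of the reads. *Isg15*, a ubiquitin-like modifier, was at 1.47 to 4.58 CPM, *Ifi27* at 50.1 to 68.4 CPM and *Ifit1*, the most variable, at 4.46 to 13.5 CPM. Of the 26 genes, 15 differed between batches, near the background of 67.8%. Hypoxia genes (0.267% to 0.328% of the reads) were led by *Aldoa*, a glycolytic aldolase, at 489 to 701 CPM, and *Vegfa*, the ligand of *Kdr*, at 334 to 459 CPM. *Lcn2*, an acute phase protein, was at 287 to 482 CPM, and *Il6* at 9.03 to 29.4 CPM. *Acly*, which supplies acetyl-CoA for lipid synthesis, led the sterol and fatty acid list with 1333 to 2248 CPM. Of the aryl hydrocarbon receptor list, *Cyp1b1* was at 46.1 to 104 CPM and *Cyp1a1* at 2.63 to 8.60 CPM.

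The genes that varied most among the DMSO samples differed in how closely their pattern recurred in the other sample of the batch. The 20 with the largest SD of log2 CPM, among genes with a mean of at least 5 CPM, were *Ighm*, *Gm43305*, *Igkc*, *Gapdh*, *Cckar*, *Amy2a1*, *Rpl30-ps10*, *Hmcn1*, *Reg2*, *Srp54b*, *Gm10705*, *Try10*, *Gm26880*, *Reg3g*, *Sumo2*, *Kcnq1ot1*, *Atg9b*, *Selp*, *Reg3a* and *1810009J06Rik*. Of these, 5 had a correlation of at least 0.9 between the DMSO and adjudin samples over the batches, 13 were below 0.6, and 14 differed between batches in the edgeR test, against a background of 67.8%. Over all 12042 genes of at least 5 CPM the median correlation was 0.832, and 31.1% reached 0.9.

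Among those with a correlation of at least 0.9, *Gm43305*, a processed transcript on chromosome 14, was at 33.0, 11.6, 25.9 and 22.1 CPM in batches 1, 2, 4 and 8 and at 0.394 to 1.22 CPM in the other 4. Its adjudin samples were at 34.0, 14.8, 26.0 and 24.5 CPM in the first 4 and at 0.319 to 1.77 CPM in the rest, so all 8 batches fell on the same side. *Hmcn1*, which encodes the extracellular matrix protein hemicentin 1, was at 18.1, 7.24 and 9.89 CPM in batches 4, 5 and 6. It was at 0.868 to 3.64 CPM in the others (r = 0.949). The values of *Gm43305* and *Hmcn1* part into groups of batches, so their r says little about agreement within a group. *1810009J06Rik*, a protein-coding gene on chromosome 6, was at 491 CPM in batch 2 and 60.8 CPM in batch 8 (r = 0.933), and *Gm26880*, a lincRNA on chromosome 4, at 112 CPM in batch 4 and 12.1 CPM in batch 3 (r = 0.949). *Atg9b*, of the autophagy pathway, was at 14.6, 9.47 and 13.2 CPM in batches 1, 7 and 8 and at 1.91 to 4.72 CPM in the others (r = 0.948).

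Among those with a correlation below 0.6, *Cckar*, the cholecystokinin receptor of acinar cells, was at 0.525 to 14.5 CPM with a correlation of -0.111. The regenerating protein genes *Reg2* (14.8 to 205 CPM, r = 0.403), *Reg3g* (4.83 to 36.6 CPM, r = 0.025) and *Reg3a* (1.85 to 12.0 CPM, r = 0.257), which acinar cells express under stress, were lowest in batch 8 in the DMSO samples, as was *Try10*, a trypsinogen (1.29 to 12.6 CPM, r = 0.068). Batch 8 also had the lowest acinar share of the DMSO samples. *Gapdh*, a glycolytic enzyme, was counted at 3.15 to 9.84 CPM in 6 samples and at 43.5 and 67.7 CPM in batches 2 and 5, where the adjudin samples had 4.09 and 3.60 CPM. *Gapdh*, *Sumo2* (16.1 to 91.8 CPM, r = -0.043), *Srp54b* (r = 0.599) and *Rpl30-ps10* (r = 0.547) have near-identical copies that can share reads, so these values are uncertain as levels of the gene; *Srp54b* and *Rpl30-ps10* differed between batches (edgeR adjusted p = 7.5e-04 and 0.0023). *Igkc* was at 0.0395 CPM in the DMSO sample of batch 7 and at 24.99 CPM in its adjudin sample.

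**Figure D4:**
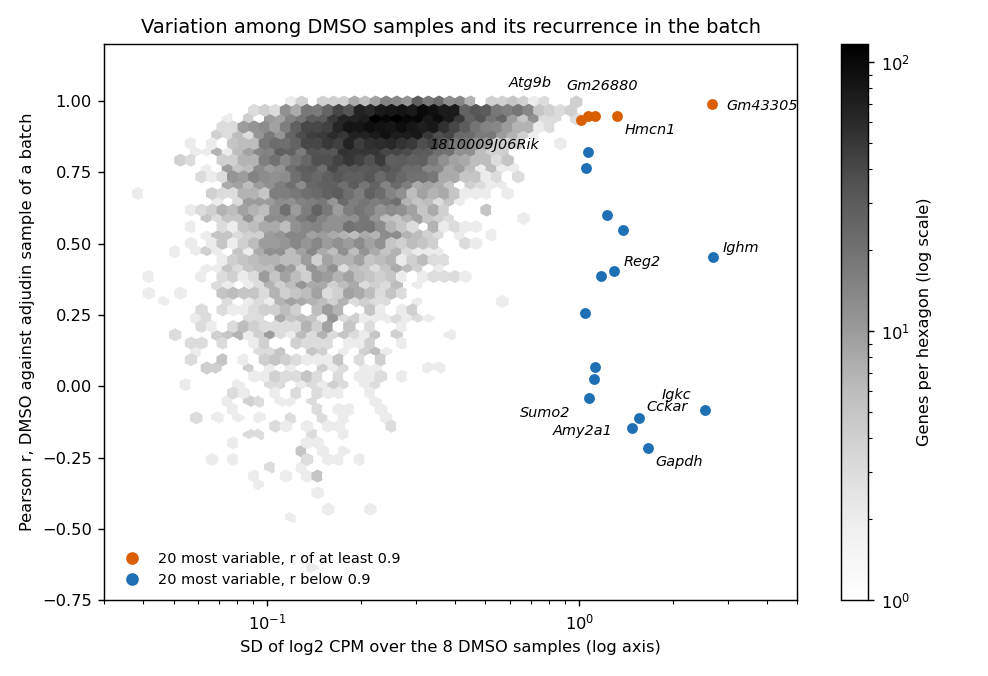
Pearson correlation between the DMSO and adjudin samples over the 8 batches (y axis) against the SD of log2 CPM over the DMSO samples (x axis, log scale) for 12042 genes of at least 5 CPM, shown as hexagons shaded by the number of genes on a log scale. The 20 most variable genes are points, orange for the 5 with r of at least 0.9 and blue for the others, 12 of them named.

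For the 21 genes that stand for the classes, the pattern over batches was tested in the samples the description did not use. The DMSO and adjudin values were correlated over the 8 batches for 17 of 21 (exact permutation tests, adjusted p under 0.05 over the 21 genes). Recurrence was close for *Mafa* (r = 0.983, adjusted p = 7.8e-04), *Col1a1* (r = 0.985, adjusted p = 7.8e-04) and *Ins1* (r = 0.969, adjusted p = 7.8e-04). It was not found for *Gcg* (r = 0.257, adjusted p = 0.588), *Txnip* (r = 0.206, adjusted p = 0.629), *Isg15* (r = 0.463, adjusted p = 0.276) or *Ppy* (r = 0.817, adjusted p = 0.0988; r = -0.191 without batch 2). All 4 nevertheless differed between batches in the edgeR test (adjusted p = 0.0310 for *Gcg*, 0.0377 for *Txnip*, 0.0092 for *Isg15* and 2.9e-05 for *Ppy*). Without batch 3 the correlation of *Gcg* was -0.488.

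No class gene passed a test against a property of the library. Over 82 pairs of a gene with the total reads, the genes detected, the acinar share or the mitochondrial share, none passed (exact permutation tests, Pearson r, n = 8), and 15 had an unadjusted p under 0.05. Total reads had r = -0.855 with *Mafa* (adjusted p = 0.186) and r = -0.860 with *Ins1* (adjusted p = 0.186), and batch 4, the lowest for both genes, had the most reads. Without the 2 samples farthest from the median of total reads, these were -0.489 and -0.648. The part of depth in the covariation of *Mafa* and *Ins1* was not tested further. *Hspa5* with the mitochondrial share had r = 0.919 (adjusted p = 0.112), and it was the 1 pair that passed when CPM were not adjusted by TMM (trimmed mean) factors.

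The main axes of variation among the 8 samples followed the groups of batches seen above. Principal components were computed on the 5000 most variable genes (by median absolute deviation). The first explained 28.3% of the variance and set batches 4, 5 and 6 (27.5, 24.0 and 18.4) apart from the other 5 (-23.4 to -7.47). The second explained 22.9% and set batches 2 and 3 (26.4 and 29.0) apart from the other 6 (-18.0 to 2.38). On the first component all 17 endothelial and all 10 cell cycle genes in the analysis had positive loadings, and 12 of 14 stellate cell and fibroblast genes, while all 25 mitochondrially encoded and all 12 macrophage genes had negative ones, against 2328 positive and 2672 negative of all 5000. On the second, all 25 mitochondrially encoded and all 10 ribosomal protein genes were positive and all 12 genes of beta cell function and all 9 beta cell transcription factors were negative, against 2756 positive and 2244 negative.

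Genes with the highest loadings on the first component were *Ighm*, *Igkc*, *Hmcn1*, *Dchs2*, *Zbtb20*, *Pcdh17*, *Erbb4*, *Chrm2*, *Col6a5* and *Gm44667*. Those with the lowest were *Dynlt1a*, *Gm20627*, *Gm11766*, *Rhbdl1*, *AL805899.1*, *Atg9b*, *Gpc2*, *mt-Tc*, *Gm15884* and *Col11a2*. The component also ran along gene length: the 500 genes at the positive end had a median length of 7527.5 bases, the 500 at the negative end 1954 bases, and all 5000 a median of 3200.5 bases (Spearman rho 0.438 between loading and length across genes, which are not independent replicates). On the second component the medians were 2299.5 and 3368 bases. The part of RNA integrity or library preparation in the endothelial, cell cycle and mitochondrial differences was not tested.

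**Figure D5:**
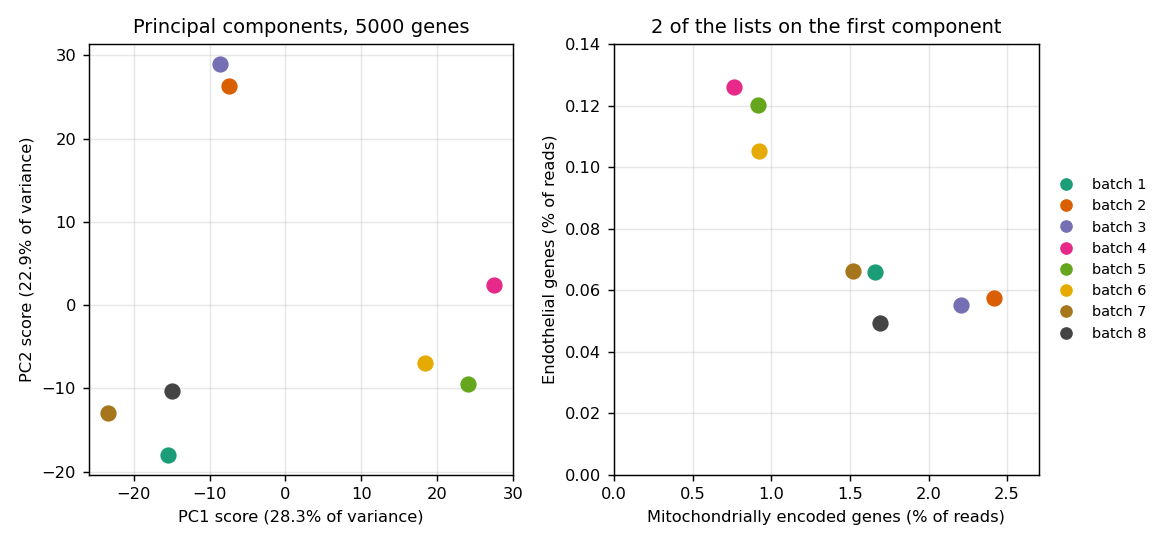
Left, scores of the 8 DMSO samples on the first (x axis) and second (y axis) principal components of 5000 genes; right, share of reads of endothelial genes (y axis, percent) against that of mitochondrially encoded genes (x axis, percent), 1 point per sample coloured by batch. Batches 4, 5 and 6 lie apart in both, with endothelial shares of 0.105% to 0.126% and mitochondrial shares of 0.765% to 0.921%.

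Lists differed in how closely their own members moved together over the 8 samples. The median correlation between members of at least 5 CPM was 0.950 for mitochondrially encoded genes, 0.910 for endothelial, 0.863 for ribosomal protein, 0.769 for acinar and 0.736 for beta cell function genes. It was 0.185 for the endoplasmic reticulum list, 0.010 for the diabetic stress list and -0.006 for all genes. Members share libraries and scaling, and these values are descriptions without a test.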

How the data were processed

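The authors sequenced poly-T selected mRNA (paired-end), aligned it to GRCm38 (mm10) with HISAT2 2.0.5 and deposited raw read counts per gene from featureCounts 1.5.0-p3. Strand setting, annotation release and the treatment of reads with several positions: not given in the sources used here. Counts were used as deposited, with 27 symbols that a spreadsheet had turned into dates restored by Ensembl identifier. CPM used the total counts; log2 CPM used TMM factors and a prior count of 2. Reads were divided by the deposited gene length for TPM. Batches were compared with the quasi-likelihood F test of edgeR 4.0.16 (R 4.3.3, batch and treatment, all 16 samples, Benjamini-Hochberg adjustment, threshold 0.05). The test was also run on simulated counts in which a small set of genes changed in 1 batch. In these data 67.8% of the genes tested differed, a setting that the simulation does not check. Single genes were compared by exact two-sided permutation over 40320 orders of 8 samples, Pearson r unless rho is named, in Python 3.11.15 (scipy 1.17.1). The methods of the study call the samples biological, each from islets of 1 to 2 mice; whether the DMSO and adjudin samples of a batch share mice is not stated. Shares have counting intervals (Wilson, 95%) far narrower than the differences between batches. Named genes were the 20 most abundant and 20 most variable genes, 21 class genes, the 3 most abundant and the most variable member of each of 32 lists, the 10 genes at each end of the first component, members of short lists, sex-linked genes and *Lepr*; others are said to be named after values were seen. The class genes and lists were chosen with earlier results of these data known. Alternatives were other scaling, filters, DESeq2 1.42.0 and leaving out each batch.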

Additional observations from a re-analysis of the deposited data

Results flagged for a closer look

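Among 88 quantities checked over the 8 DMSO samples (shares of reads, library measures and CPM of the class, most abundant and most variable genes), 6 had 1 sample far from the other 7; chance alone would flag about 1 in 20. Batch 4 had the highest share of stellate cell and fibroblast genes (3.38%, next 2.35%), of disallowed genes (0.203%, next 0.161%) and the highest *Col1a1* (8617 CPM, next 5821 CPM). Batch 2 had the highest *Ppy* (3914 CPM, next 2798 CPM). Batch 3 had the lowest *Pyy* (793 CPM, next 1347 CPM) and the highest *Rpl30-ps10*, a ribosomal protein pseudogene (46.7 CPM, next 22.9 CPM).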

How the results depend on the processing

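No paired analysis was possible because the DMSO samples form 1 group and the batch number is itself what was compared. The number of genes that differed between batches stayed within 1.5 times of 11461 under every alternative run (10502 with no treatment term to 12428 with no filter on low counts; 10408 to 11372 with 1 batch left out), and the DMSO and adjudin samples agreed for 15 to 17 of the 21 genes with 1 batch left out. With 1 sample left out, 0 to 3 gene pairs passed, in place of 2; 14 to 18 of the 20 most variable genes were shared. With CPM on the total in place of TMM, 1 pair of a gene and a library measure passed (*Hspa5* with the mitochondrial share), in place of none. With a mean of at least 1 CPM 7 of the 20 most variable genes were shared, and with at least 20 CPM 5, by construction. As length-scaled abundance the medians were 21.8% for islet hormones, 5.09% for acinar, 0.399% for macrophage, 1.01% for stellate cell and fibroblast and 3.37% for mitochondrially encoded genes. With 1 sample left out, medians were 9.08% to 9.73% for islet hormones, 1.84% to 1.93% for granule, 1.84% to 1.91% for acinar, 0.250% to 0.252% for macrophage, 2.07% to 2.08% for stellate cell and fibroblast, 0.0659% to 0.0661% for endothelial and 1.52% to 1.66% for mitochondrially encoded genes. The correlation between DMSO and adjudin samples was -0.191 (without batch 2) to 0.919 for *Ppy* and -0.488 (without batch 3) to 0.501 for *Gcg* with 1 batch left out.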

Other observations

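Some genes of at least 1 CPM had 2 levels among the DMSO samples, parted by a gap of at least 2 on the log2 scale with 2 or more samples on either side (a search chosen after seeing the data). There were 11 of 14903: *Ighg2b*, *Igkv1-135*, *Gm14434*, *Igkc*, *Amy2a2*, *Gm43305*, *Vip*, *Gm2260*, *Gapdh*, *Ighm* and *Dynlt1a*. For *Gm43305* the adjudin samples of all 8 batches fell on the same side as the DMSO samples; for the other 10 they did so in 2 to 6 batches. *Vip*, a neuropeptide gene, was at 3.39, 1.56, 2.51 and 4.02 CPM in the DMSO samples of batches 1, 2, 6 and 8 and at 0 to 0.122 CPM in the rest, and its DMSO and adjudin values had r = -0.331 over the batches. *Ighg2b*, an immunoglobulin heavy chain, was at 2.81 CPM in batch 1 and 17.8 CPM in batch 8 and had no read in the other 6 DMSO samples.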
